A study of Mus musculus with 17 samples.

Results

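The genes Sqle, Lss, Cyp51, Tm7sf2, Msmo1, Nsdhl, Hsd17b7, Ebp and Dhcr7 encode enzymes that carry squalene to cholesterol. These 9 genes were taken by name from the pathway, with every probe set whose platform symbol is 1 of them, in all 17 arrays of the series. They are 9 of the 12393 genes with a probe set of their own, and their 14 probe sets are among 22626 that are not array controls. Of the 14 probe sets, 11 passed the filter on dim probe sets and were tested, at least 1 for each gene, and none carried a second gene symbol.

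Gene expression in the hypothalamus, the brain region that sets feeding, energy use and hormone release, was measured on Affymetrix mouse arrays, 1 array for each hypothalamus. All mice were male, of the strain C57Bl/6 and 9 weeks old. The 5 ob/ob mice are homozygous for the obese mutation and make no functional leptin, the hormone by which fat tissue signals its stores. No injection of their own is recorded for them. The 6 STZ mice were of wildtype genotype and had 1 intraperitoneal injection of streptozotocin, which destroys the pancreatic beta cells that make insulin, at 200 µg per g of body weight. The 6 control mice were also of wildtype genotype and had the same volume of vehicle. The time between injection and sampling, blood glucose and body weight were not given in the sources used here, so the depth of diabetes or obesity in each mouse cannot be set beside its array. Leptin is missing from every tissue of ob/ob mice, and the loss of insulin after streptozotocin reaches the whole body, so neither model acts on the hypothalamus alone.

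Squalene, a straight hydrocarbon, is oxidised by Sqle and closed into the first sterol, lanosterol, by Lss. Cyp51 and the reductase Tm7sf2 then remove a methyl group and the double bond it leaves, Msmo1, Nsdhl and Hsd17b7 strip the remaining pair of extra methyl groups in turn, and Ebp and Dhcr7 set the final double bonds. The adult brain makes its own cholesterol, because lipoproteins hardly cross the blood-brain barrier, and uses it for myelin and for the membranes of synapses. Transcription of the pathway is driven by SREBP2, which is released from the endoplasmic reticulum when sterols run low.

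The promoters of 5 of the enzymes are shown because the signals of Lss and Cyp51 each followed those of Msmo1 over the arrays, though not each other (r = 0.051), or because they stood highest in ob/ob mice relative to controls (Tm7sf2 and Hsd17b7). Each line is the sequence of the 250 bases before the annotated start, written in the direction of the gene, from the RefSeq promoter table on GRCm38.p6. Capitals mark CCAAT, the box bound by NF-Y, and GGGCGG, the box bound by Sp1, on either strand, so that the reverse complements also stand in capitals. Both factors are known partners of SREBP2 at sterol genes.
Msmo1 (chr8:64733579-64733828, minus strand): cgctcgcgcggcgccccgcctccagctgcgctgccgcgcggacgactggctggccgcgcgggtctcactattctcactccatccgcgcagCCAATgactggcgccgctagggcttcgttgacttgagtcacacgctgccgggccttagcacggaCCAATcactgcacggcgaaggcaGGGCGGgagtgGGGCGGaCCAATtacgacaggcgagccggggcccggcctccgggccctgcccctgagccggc
Lss (chr10:76531355-76531604, plus strand): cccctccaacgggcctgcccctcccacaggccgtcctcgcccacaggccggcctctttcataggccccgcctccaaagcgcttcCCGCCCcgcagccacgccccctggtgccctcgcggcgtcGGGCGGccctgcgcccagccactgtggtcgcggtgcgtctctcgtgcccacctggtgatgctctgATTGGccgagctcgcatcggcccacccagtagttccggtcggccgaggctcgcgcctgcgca
Cyp51 (chr5:4104698-4104947, minus strand): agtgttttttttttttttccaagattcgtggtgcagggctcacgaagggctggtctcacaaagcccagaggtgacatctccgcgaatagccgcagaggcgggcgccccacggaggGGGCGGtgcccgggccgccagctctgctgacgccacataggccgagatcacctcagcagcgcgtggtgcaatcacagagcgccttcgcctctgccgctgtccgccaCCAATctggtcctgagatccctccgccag
Tm7sf2 (chr19:6067851-6068100, minus strand): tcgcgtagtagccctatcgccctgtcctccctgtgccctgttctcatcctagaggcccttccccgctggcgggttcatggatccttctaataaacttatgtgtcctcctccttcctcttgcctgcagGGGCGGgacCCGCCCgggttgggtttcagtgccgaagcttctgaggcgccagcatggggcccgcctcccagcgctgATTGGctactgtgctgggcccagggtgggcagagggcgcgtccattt
Hsd17b7 (chr1:169969206-169969455, minus strand): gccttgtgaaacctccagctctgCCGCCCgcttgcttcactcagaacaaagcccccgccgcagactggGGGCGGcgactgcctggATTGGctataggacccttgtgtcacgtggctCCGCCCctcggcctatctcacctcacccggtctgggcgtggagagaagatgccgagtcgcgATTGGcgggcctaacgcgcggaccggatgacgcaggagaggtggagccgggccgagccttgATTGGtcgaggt

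Of the 9 enzymes, 8 had promoters in that table, 10 promoters in all because Dhcr7 has 3. Over windows of 300 bases, from 250 before to 50 after the start, CCAAT stood in 8 of these 10 promoters and in a promoter of each of the 8 genes, against 37.4% of all 32851 promoters and 36.8% of the 8518 promoters of genes tested here. The Msmo1 promoter held 3 copies on its own strand, with first bases at -160, -96 and -55, and the Hsd17b7 promoter held 3 on the opposite strand, at -165, -73 and -12. GGGCGG stood in 9 of the 10 promoters, against 63.3% of those of genes tested, a share that is itself high. The E-box CACGTG stood in 2 of the 10, those of Hsd17b7 and of 1 Dhcr7 start, against 10.1% of the promoters of genes tested. The sterol regulatory element was searched as TCACNCCAC and, in a shorter form, as CACNCCAC, and neither string was found in these windows. Other spellings of the element were not searched, so these promoters are not shown to lack it. The longer string was found in 1.19% of the promoters of genes tested and the shorter 1, which every longer match also holds, in 6.28%. These are matches of letters only.

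The deposited MAS5 signals, linear brightness values in arbitrary units, had a 2% trimmed mean of 1500.4 on each array, and medians between 637.6 and 707.05. The correlation of log2 signals between arrays lay between 0.972 and 0.989 over the 13576 probe sets tested, and 0 pairs of arrays were identical. Of 8 hypothalamic markers, 5 were measured above the filter, Hcrt, Avp, Oxt, Gal and Sim1 (geometric mean signals of 5404 to 7620 for Hcrt over the 3 groups), while Nkx2-1 and Otp were under the filter and Pmch had no probe set of its own. Since these are whole hypothalami, a lower signal from fewer cells of a type and from less RNA per cell cannot be told apart. Differences are log2 fold changes of geometric means with their standard errors, from 1 limma model of the 3 groups, and an adjusted p is corrected over all 13576 probe sets with a threshold of 0.05. The p-values measure the spread between these mice, which the labels number but do not tie to litters, days or batches.

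In STZ hypothalami Sqle was at 87.2% of the control level and Msmo1 at 88.7%, and both differences missed the threshold once all probe sets were counted. The other 7 enzymes lay between 93.6% and 110.2% of the control level. Of the 9 enzymes 8 had a negative log2 fold change, with a median of -0.046, against 48.4% of the 7954 genes tested and a median of 0.0042 over them. No enzyme passed the adjusted threshold, which 0.0516% of the probe sets tested did, 6 higher and 1 lower. At an unadjusted p under 0.05 there were 2 of the 9, both lower, against 8.52% of genes tested, and in none of the 9 did the arrays of the groups fail to overlap, as they did in 0.49% of genes tested.

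Sqle, the squalene epoxidase, had signals from 2683 to 3431 in the 6 STZ hypothalami, with a median of 3179, against 3263 to 3850 and a median of 3615 in the 6 controls. All 6 STZ arrays lay below the control median and 4 of them below the lowest control, so the groups met only at the edge. The difference was -0.20 ± 0.061, an interval of 0.798 to 0.953 as a ratio, with an adjusted p = 0.353 (limma).

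Msmo1, the methylsterol monooxygenase that begins the removal of the paired methyl groups, ran from 4968 to 5675 in STZ hypothalami, with a median of 5250.15, against 5249.9 to 6769 and a median of 6043 in controls. Again all 6 STZ arrays lay under the control median, 3 of them under the lowest control. The difference was -0.17 ± 0.056, an interval of 0.819 to 0.962 as a ratio, with an adjusted p = 0.380 (limma). Sqle and Msmo1 kept a negative difference and an unadjusted p under 0.05 when any 1 of the 12 STZ and control arrays was left out, with differences of -0.23 to -0.15 for Sqle and -0.21 to -0.14 for Msmo1.

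Lss, the cyclase that makes lanosterol, ran from 919 to 1082 in STZ hypothalami (median 1011), against 875.4 to 1139 in controls (median 1084). Every STZ array was below the control median but inside the control range, and the difference was -0.046 ± 0.084. Its other tested probe set, of a kind that can catch more than 1 transcript, stood at 0.024 ± 0.12, so the sign rested on the probe set.

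Cyp51, the lanosterol demethylase, had 1954 to 2319 in STZ hypothalami (median 2135), against 2142 to 2399 in controls (median 2292), and 3 of the 6 STZ arrays were under the lowest control. Its difference was -0.096 ± 0.051 (adjusted p = 0.651, limma), and the dimmer tested probe set of the gene gave -0.12 ± 0.089. The same side of the control level was thus seen with both probe sets, without passing the test in either. When all 3 probe sets of the gene were averaged, the untested dim probe set included, the difference was -0.25 ± 0.11 (adjusted p = 0.550, limma).

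Tm7sf2, which reduces the double bond that Cyp51 leaves, was the only enzyme with a positive difference, 0.14 ± 0.14. Its STZ signals ran from 539.1 to 838.1 (median 726.6), against 470.1 to 887.5 in controls (median 650.7), a control range that held all 6 STZ arrays. Nsdhl, the dehydrogenase that follows Msmo1, ran from 2218 to 2599 in STZ hypothalami (median 2481), against 2440.2 to 2698 in controls (median 2627), with all 6 STZ arrays below the control median and a difference of -0.070 ± 0.050 (adjusted p = 0.764, limma). Without control array 1 the difference of Tm7sf2 was 0.054, without control array 3 it was 0.24, and with STZ array 5 or 4 or control array 5 left out it was 0.21, 0.087 and 0.079. The sign of Tm7sf2 was opposite to that of its neighbours in the route, with the widest standard error of the 9.

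The last enzymes of the route were close to control. Hsd17b7, the ketoreductase, ran from 919.9 to 1240 in STZ hypothalami (median 1051), against 1016 to 1131 in controls (median 1050.45), so that the medians met and the STZ arrays spread further to both sides. Ebp, the sterol isomerase, had 1292 to 1639.9 in STZ hypothalami (median 1389), against 1338 to 1654 in controls (median 1431). Dhcr7, the final reductase, had 1638 to 1768 in STZ hypothalami (median 1722), all inside the control range of 1398 to 1952 (median 1752). The differences were -0.013 ± 0.077 for Hsd17b7, -0.037 ± 0.070 for Ebp and -0.019 ± 0.074 for Dhcr7. The intervals of these 3 ran, as ratios, from 0.881 to 1.11. The dim second probe set of Hsd17b7, which was not tested, had 223.3 to 440.4 in STZ hypothalami (geometric mean 326), against 253.2 to 308.2 in controls (geometric mean 279), and so lay on the other side of control from the brightest.

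**Figure D1:**
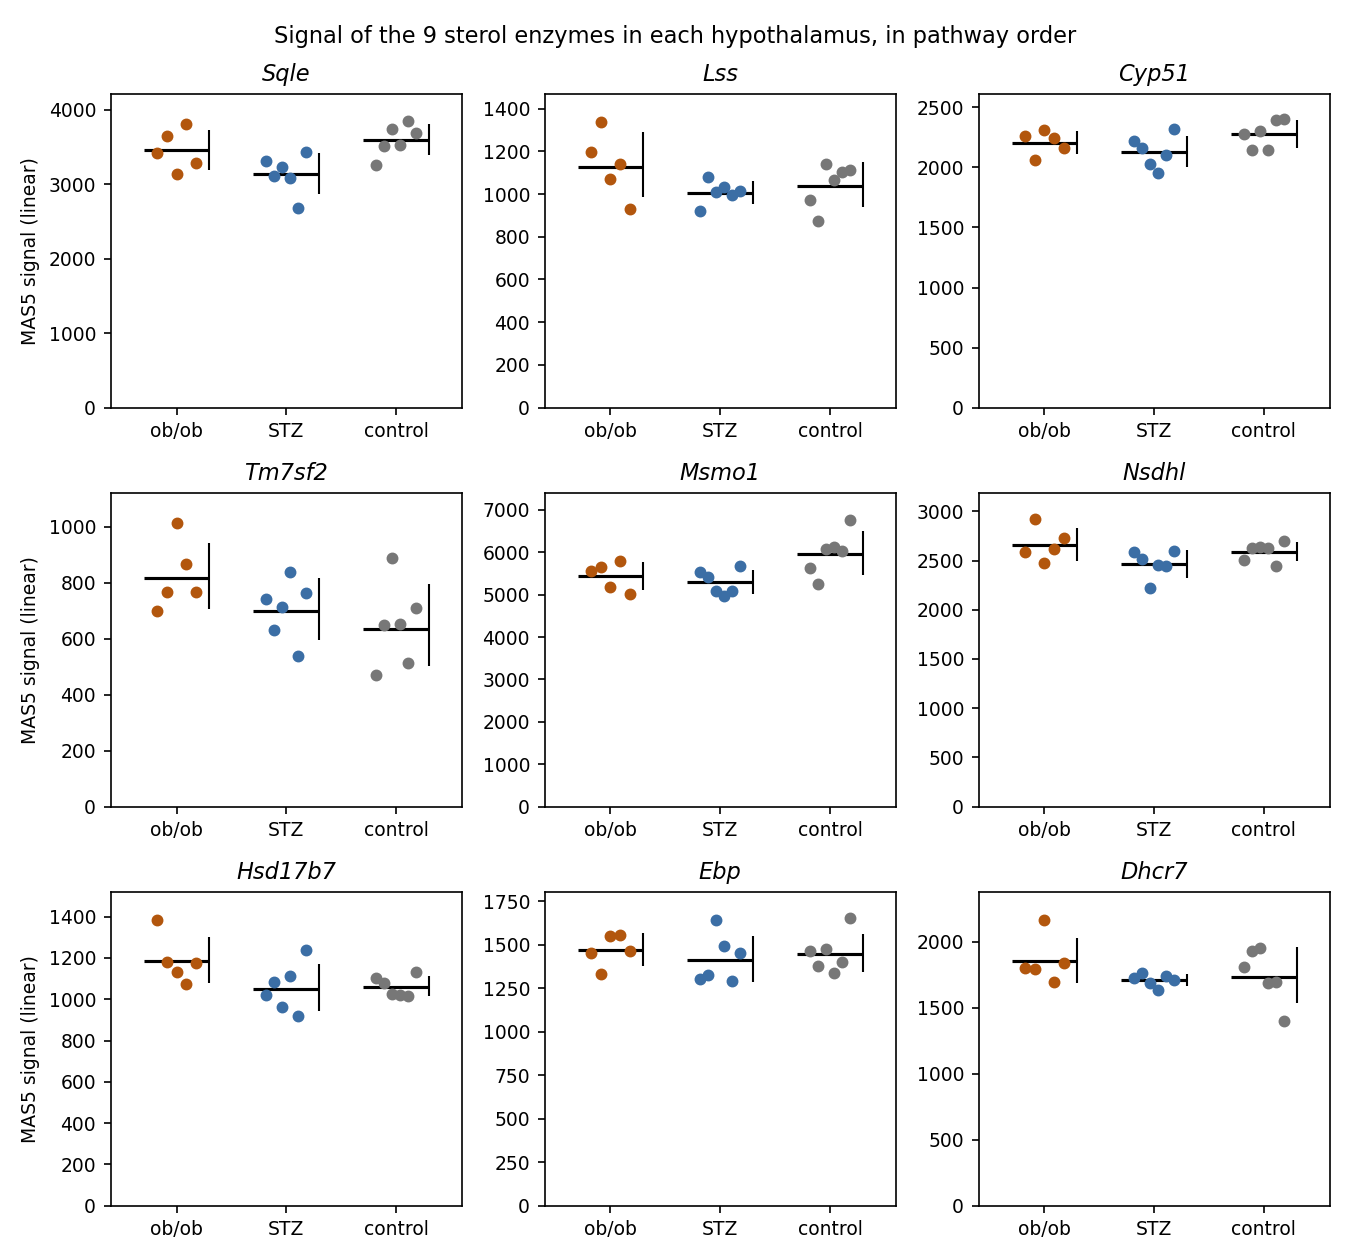
MAS5 signal of each enzyme on each of the 17 arrays (brightest probe set, arbitrary units, linear axis). The ob/ob, STZ and control arrays stand from left to right and the genes in pathway order. Points are arrays, the line is the geometric mean and the bar beside it spans 1 SD on the log scale to either side. The STZ points of Sqle and Msmo1 lie below the control median, and the ob/ob points of Tm7sf2 and Hsd17b7 above it, while the groups overlap in every panel.

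In ob/ob hypothalami the enzymes lay on both sides of the control level. Tm7sf2 stood at 129% of the control level and Hsd17b7 at 112%, Msmo1 stood at 91.2%, and the other 6 enzymes lay between 96.1% and 108%. Of the 9 enzymes 3 had a negative log2 fold change, with a median of 0.041, against 48.1% of genes tested and a median of 0.0051 over them. No enzyme passed the adjusted threshold, which 0.125% of the probe sets tested did, 6 higher and 11 lower. At an unadjusted p under 0.05 there were 2 of 9, 1 higher and 1 lower, against 12.1% of genes tested, and none of the 9 had groups that failed to overlap, against 1.75% of genes tested.

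Tm7sf2 signals were 697.3, 765.1, 1011, 867 and 768 in the 5 ob/ob hypothalami, against 470.1 to 887.5 with a median of 650.7 in controls. All 5 ob/ob arrays lay above the control median, but only array 3 was above the highest control. The difference was 0.36 ± 0.15, an interval of 1.04 to 1.59 as a ratio, with an adjusted p = 0.323 (limma). Tm7sf2 was also the most variable of the enzymes between mice of a group, with a pooled SD of 0.263 on the log2 scale, against 0.0764 to 0.143 for the brightest probe sets of the other 8 and a median of 0.139 over all probe sets tested. The unadjusted p was under 0.05, and moved over it without ob/ob array 3, control array 1 or control array 5, with differences of 0.29, 0.28 and 0.30 in those fits.

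Hsd17b7 signals were 1386, 1180.2, 1132, 1075 and 1174 in ob/ob hypothalami, against 1016 to 1131 with a median of 1050.45 in controls. All 5 ob/ob arrays were above the control median and 4 were above the highest control. The difference was 0.16 ± 0.080 (adjusted p = 0.452, limma). The dim second probe set of the gene, which was not tested, ran from 239 to 362.5 in ob/ob hypothalami, a geometric mean of 303, and from 253.2 to 308.2 in controls, so it spread to both sides of the controls. Its geometric mean of 326 in STZ hypothalami was above that of ob/ob hypothalami, which is not the order of the brightest probe set.

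Msmo1 lay on the other side. Its signals were 5560.2, 5655, 5168, 5795 and 5014 in ob/ob hypothalami, against 5249.9 to 6769 with a median of 6043 in controls, so all 5 ob/ob arrays were below the control median and 2 below the lowest control. The difference was -0.13 ± 0.059, an interval of 0.838 to 0.992 as a ratio, with an adjusted p = 0.367 (limma). Its unadjusted p was under 0.05, and moved over it when any of 6 arrays was left out in turn, control arrays 3, 4, 5 or 6 or ob/ob arrays 3 or 5, with differences of -0.13 to -0.097 in those fits.

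Sqle was at 3428, 3650.2, 3144, 3811 and 3287 in ob/ob hypothalami, against 3263 to 3850 with a median of 3615 in controls. These ob/ob arrays spanned most of the control range, with 1 below it, and the difference was -0.057 ± 0.064 (adjusted p = 0.779, limma). Lss was at 1197, 1338, 1071, 1139 and 930.3 in ob/ob hypothalami, against 875.4 to 1139 in controls, with a difference of 0.12 ± 0.089 (adjusted p = 0.650, limma). Without ob/ob array 2 that difference was 0.055, without control array 2 it was 0.067, and without ob/ob array 5 it was 0.19, where the unadjusted p was under 0.05. The other tested Lss probe set was at 0.021 ± 0.13. Its highest ob/ob signal was 1316, on array 1, whereas the brightest probe set was highest on array 2.

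Cyp51 signals were 2258, 2065, 2314, 2243 and 2164 in ob/ob hypothalami, against 2142 to 2399 with a median of 2292 in controls, and 4 of the 5 ob/ob arrays were below that median. Its difference was -0.043 ± 0.054 with the brightest probe set and -0.15 ± 0.094 with the dimmer tested probe set, by which all 5 ob/ob arrays were below the control median. Nsdhl was at 2584, 2919.8, 2475, 2621 and 2728 in ob/ob hypothalami, against 2440.2 to 2698 in controls, with a difference of 0.041 ± 0.053. The ob/ob range of Nsdhl reached past the highest control on 2 arrays, while 3 lay below the control median.

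Ebp and Dhcr7 completed the route without passing the test. Ebp signals were 1449.5, 1331, 1552, 1557 and 1465 in ob/ob hypothalami, against 1338 to 1654 with a median of 1431 in controls, a difference of 0.020 ± 0.073. Dhcr7 signals were 1801, 1792, 2168, 1696 and 1843 in ob/ob hypothalami, against 1398 to 1952 with a median of 1752 in controls, a difference of 0.095 ± 0.077 (adjusted p = 0.674, limma). For both, 4 of the 5 ob/ob arrays lay above the control median, and Dhcr7 was highest on array 3, the array on which Tm7sf2 was highest too. Without that array the difference of Dhcr7 was 0.039, and without control array 6 it was 0.033.

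The 2 other dim probe sets, under the filter and not tested, spread widely in each group. That of Lss had signals of 129.6 to 341.4 in ob/ob, 35 to 349.2 in STZ and 53.8 to 320.3 in control hypothalami. That of Cyp51 had 148.3 to 236.5 in ob/ob, 39.7 to 183.9 in STZ and 131.3 to 239.1 in control hypothalami. The ranges overlapped throughout.

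**Figure D2:**
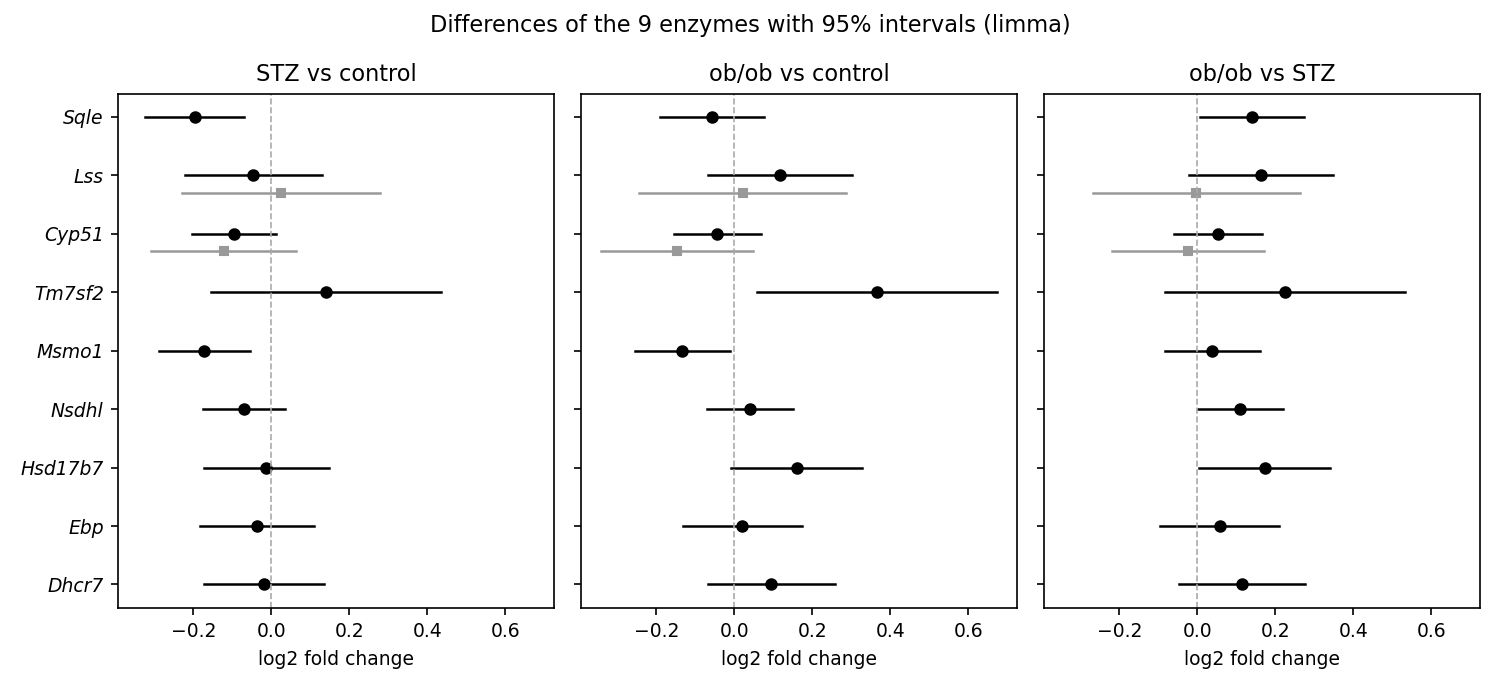
Log2 fold change of each enzyme in each of the 3 comparisons, with genes in pathway order and bars for 95% intervals. Black circles are the brightest probe set of a gene and grey squares the other tested probe set of Lss and Cyp51. No adjusted p was under 0.05, and in ob/ob against STZ all 9 circles lie above 0, between 0.039 and 0.22.

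Set against STZ hypothalami, ob/ob hypothalami had a positive difference for all 9 enzymes by their brightest probe sets. The differences ran from 0.039 (Msmo1) to 0.22 (Tm7sf2) with a median of 0.11, against 51.3% positive and a median of 0.0022 over the genes tested. None passed the adjusted threshold, which 0.0368% of the probe sets tested did, all of them lower in ob/ob, and each of the 9 had an adjusted p = 0.9996 (limma). At an unadjusted p under 0.05 there were 3 of 9, all higher, against 4.19% of genes tested. No enzyme had groups that failed to overlap, against 0.49% of genes tested. This comparison shares its STZ arrays with STZ against control and its ob/ob arrays with ob/ob against control, so it adds no independent mice.

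Hsd17b7 had 0 of 5 ob/ob arrays below the STZ median of 1051, and STZ signals from 919.9 to 1240, with a difference of 0.17 ± 0.080. Sqle had 1 of 5 ob/ob arrays below the STZ median, and a difference of 0.14 ± 0.064. Nsdhl also had 1 of 5, and a difference of 0.11 ± 0.053. These were the 3 with an unadjusted p under 0.05, and all 3 moved over it without STZ array 5 or without ob/ob array 2, as each did without some of the other arrays. Without STZ array 5 the differences were 0.13 for Hsd17b7, 0.095 for Sqle and 0.11 for Nsdhl, and without ob/ob array 2 they were 0.17, 0.12 and 0.077.

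Lss stood at 0.16 ± 0.089, Tm7sf2 at 0.22 ± 0.15, Dhcr7 at 0.11 ± 0.077, Ebp at 0.057 ± 0.073, Cyp51 at 0.053 ± 0.054 and Msmo1 at 0.039 ± 0.059. The other tested probe sets did not share the sign, with -0.0027 ± 0.13 for Lss and -0.024 ± 0.094 for Cyp51. When all probe sets of a gene were averaged, the untested dim ones included, Cyp51 was at 0.22 and Hsd17b7 at 0.032. For Msmo1, whose difference from control was negative in both models, the ratio of ob/ob to STZ had an interval of 0.944 to 1.12.

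Averaged over the enzymes, the deviation of an array from the control mean ran from -0.00040 to 0.089 in ob/ob, from -0.17 to 0.038 in STZ and from -0.073 to 0.10 in control hypothalami, on the log2 scale. STZ array 5 was lowest, with 8 of its 9 enzymes below the control mean, and STZ array 1 also had 8 below. STZ array 6 was the highest of its group, with 4 below. In ob/ob hypothalami 3 or 4 of the 9 enzymes were below the control mean on every array. Control arrays 3 and 6 stood above the other controls, with 1 enzyme below the mean on each, while the other 4 had 5 below. Probe set by probe set, no array stood apart from its group by Dixon's test at the 95% level. That covered 33 sets of values, from the 11 tested probe sets in 3 groups. The averages over the enzymes were not put to this test. Among them ob/ob array 5, at -0.00040, lay below the other ob/ob arrays, which ran from 0.067 to 0.089.

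**Figure D3:**
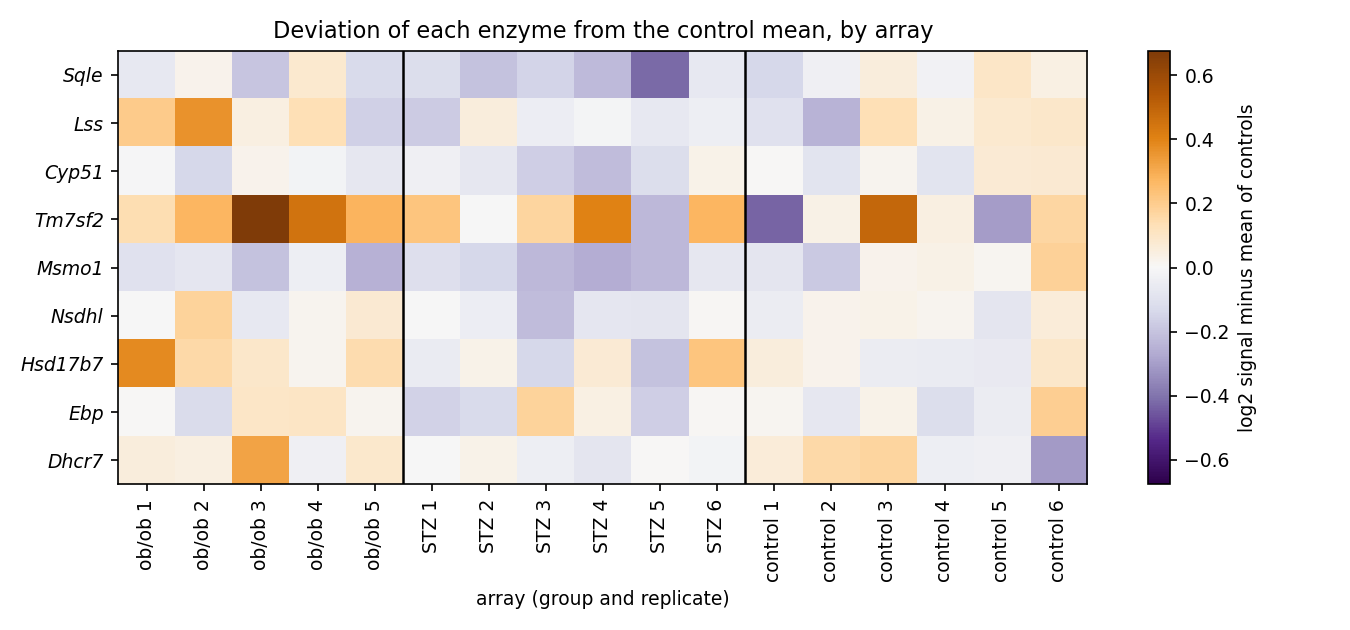
Deviation of each enzyme from its control mean (log2) on each array, ob/ob, STZ and control arrays from left to right, genes in pathway order. The column of STZ array 5 is low for 8 of 9 enzymes, with a mean of -0.17, and Tm7sf2 has the widest spread of all rows.

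The enzymes co-varied only in part between mice of the same group. Over the 36 pairs, with the group means removed, the correlation of log2 signals over 17 arrays had a median of 0.14, against 0.00060 over pairs of all genes tested, and 27 pairs were above 0. The pairs share libraries and their scaling, so these values are descriptions. Msmo1 had the highest values, 0.64 with Lss, 0.62 with Sqle and 0.54 with Cyp51, the early steps of the route. Dhcr7 had negative values for 7 of its 8 pairs, from -0.040 with Cyp51 to -0.62 with Msmo1. Its only positive value was with Tm7sf2 (0.13). Control array 6 had both the lowest Dhcr7 deviation from the control mean, -0.31, and the highest of Msmo1, 0.18. The correlation was not computed without that array. The promoters of Msmo1, Lss and Cyp51 printed above hold CCAAT close to the start, at -55, -62 and -29. So does a promoter of each of the other 5 enzymes in the table, though not every promoter of Dhcr7.

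**Figure D4:**
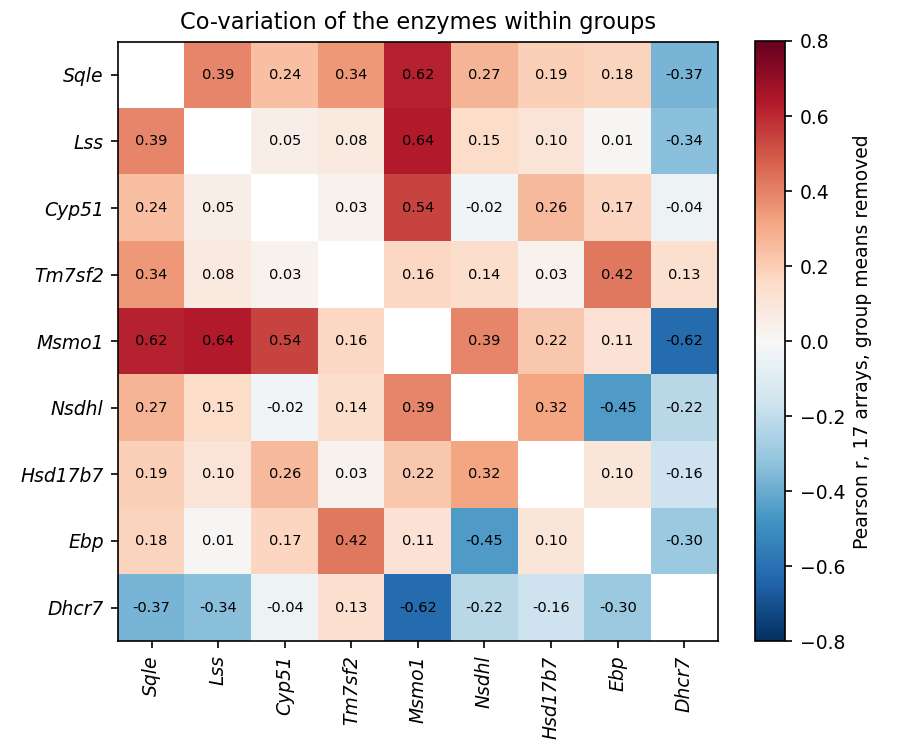
Pearson correlation of log2 signals between each pair of enzymes over 17 arrays after the group means were removed (red above 0, blue below 0, genes in pathway order on both axes). Red cells join Msmo1 to Sqle, Lss and Cyp51 at 0.54 to 0.64, and the row and column of Dhcr7 are blue except at Tm7sf2 (0.13).

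Among the other genes tested, the 5 whose signals were most like the mean of the standardized enzymes over the 17 arrays, with group means removed, were Tmem123 (r = 0.89), Dmac1 (0.82), Snap23 (0.81), Zfp943 (0.78) and Gnpda2 (0.78). Enzymes of the same pathway were less like it. Idi1, the isomerase of the isoprenoid units, had 0.56 and rank 166 of 7945 genes, and Sc5d, the desaturase that precedes Dhcr7, had 0.47 and rank 389, while Fdps was at -0.26.

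The steps before squalene, which build it from acetyl-CoA, were represented by 7 mevalonate and isoprenoid genes. In STZ against control 6 of the 7 were negative with a median of -0.15, against 48.4% of genes tested. At an unadjusted p under 0.05 there were 3, all lower, against 8.52% of genes tested, and 0 passed the adjusted threshold. Idi1 was at -0.25 ± 0.068 (adjusted p = 0.247) and Fdps, the farnesyl diphosphate synthase, at -0.20 ± 0.061 (adjusted p = 0.316). In ob/ob against control the median was -0.0081 with 4 of 7 negative, against 48.1% of genes tested. Mvd, a decarboxylase, was at 0.14 ± 0.11 and Fdps at -0.065 ± 0.064. In ob/ob against STZ all 7 were positive with a median of 0.13, against 51.3% of genes tested. At an unadjusted p under 0.05 there were 3, against 4.19% of genes tested, and 0 passed the adjusted threshold (limma). Idi1 was at 0.19 ± 0.071 and Fdft1, the squalene synthase, at 0.12 ± 0.048.

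None of the other genes of sterol synthesis or its control analysed here passed the test. Sc5d and Lbr, a nuclear envelope protein with the same reductase activity as Tm7sf2, were among them. In ob/ob against control Sc5d was at -0.11 ± 0.062 and Lbr at 0.10 ± 0.061, in STZ against control they were at -0.019 ± 0.059 and 0.11 ± 0.058, and in ob/ob against STZ at -0.094 ± 0.062 and -0.013 ± 0.061.

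Of the 4 electron donors that between them feed Sqle, Cyp51, Msmo1 and Sc5d, 3 were measured, Cyb5r3, Cyb5a and Cyb5b. Por had no probe set of its own, so any difference in it was not seen. The medians of the 3 were -0.017 in ob/ob against control, -0.12 in STZ against control and 0.014 in ob/ob against STZ, and 0 passed. Cyb5b was at -0.21 ± 0.11 and Cyb5a at -0.017 ± 0.070 in ob/ob against control, Cyb5b at -0.13 ± 0.11 and Cyb5r3 at -0.12 ± 0.11 in STZ against control, and Cyb5r3 at 0.14 ± 0.11 and Cyb5b at -0.081 ± 0.11 in ob/ob against STZ.

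Of the SREBP regulators 5 of 7 were measured, with medians of -0.016 in ob/ob against control, -0.012 in STZ against control and 0.039 in ob/ob against STZ, and 0 passed. Scap, the escort that carries SREBP to the Golgi, had the smallest p, at 0.24 ± 0.097 in ob/ob against control (adjusted p = 0.338, limma) and 0.20 ± 0.097 in ob/ob against STZ. Mbtps1, a protease that cuts SREBP there, was at 0.12 ± 0.075 and 0.063 ± 0.075 in the same comparisons and at 0.057 ± 0.071 in STZ against control, where Srebf2, the gene of SREBP2 itself, was at -0.055 ± 0.054. Stard4, a sterol carrier and the only 1 of 3 other SREBP2 targets measured, was at -0.016 ± 0.056 in ob/ob against control, -0.062 ± 0.053 in STZ against control and 0.046 ± 0.056 in ob/ob against STZ.

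Markers of tissue next to the hypothalamus stood higher in ob/ob and in STZ hypothalami than in controls, without a marker past the adjusted threshold. Of 20 markers of striatum, cortex and thalamus 10 were measured above the filter, 4 were under it, 6 had no probe set of their own and none was at 0. Signals summed over the 14 with a probe set were 20378 to 24155 in ob/ob hypothalami. They were 16663 to 21724 in STZ and 14312 to 21200 in control hypothalami. Of the 10 above the filter, all 10 were positive in ob/ob against control, against 51.9% of genes tested, with a median of 0.29. At an unadjusted p under 0.05 there were 5 of these 10, against 12.1% of genes tested. Prkcd was at 0.66 ± 0.20 in that comparison (adjusted p = 0.164, limma). In STZ against control 9 of 10 were positive, against 51.6% of genes tested, with a median of 0.12. Only 1 of the 10 had an unadjusted p under 0.05 there, against 8.52% of genes tested. This was Ramp3, at 0.64 ± 0.18 (adjusted p = 0.260, limma). Signals summed over the 7 hypothalamic markers with a probe set were 29784 to 36786 in ob/ob hypothalami. They were 31430 to 47850 in STZ and 31660 to 41301 in control hypothalami. The 5 above the filter had median differences of -0.25 in ob/ob against control and -0.061 in STZ against control. The orexin gene Hcrt had geometric means of 5404 in ob/ob, 6865 in STZ and 7620 in control hypothalami, a difference of -0.50 ± 0.11 for ob/ob against control (adjusted p = 0.0687, limma).

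With the mean level of the 10 neighbouring-region markers as a covariate, the median difference of the 9 enzymes was 0.14 for ob/ob minus control, -0.032 for STZ minus control and 0.13 for ob/ob minus STZ, with 3, 6 and 0 of them negative. Tm7sf2 was then at 0.55 in ob/ob against control (adjusted p = 0.598, limma), and Sqle and Msmo1 at -0.21 and -0.18 in STZ against control. Sqle, Hsd17b7 and Nsdhl in ob/ob against STZ were at 0.13, 0.18 and 0.10, each with an unadjusted p over 0.05. The covariate ran from 10.73 to 10.97 (log2) in ob/ob, from 10.45 to 10.82 in STZ and from 10.19 to 10.75 in control hypothalami. The ob/ob and control ranges barely overlapped, so marker level and group are hard to separate in that comparison. Its values with the covariate are thus extrapolations.

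Among markers of cell types, the astrocyte water channel Aqp4 had the smallest adjusted p. It was at -0.29 ± 0.060 in ob/ob against control (adjusted p = 0.0558, limma) and -0.26 ± 0.058 in STZ against control (adjusted p = 0.134, limma). Most astrocyte markers lay on the other side. Of the 8, 7 were positive in ob/ob against control and 5 in STZ against control, against 51.9% and 51.6% of genes tested. Gjb6, 1 of these, was at 0.14 ± 0.051 and 0.12 ± 0.049. The microglial receptor Cx3cr1 was at -0.49 ± 0.12 in ob/ob against control (adjusted p = 0.106, limma). Oligodendrocytes, which make the most cholesterol of the brain's cells while they myelinate, had 8 of 10 markers measured, with a summed signal of 109920 to 111949 in ob/ob, 102692 to 115512 in STZ and 95875 to 125956 in control hypothalami. Their median differences were 0.077 in ob/ob against control, 0.011 in STZ against control and 0.086 in ob/ob against STZ. Astrocytes, the main source of cholesterol for adult neurons, had 8 of 8 markers measured, with summed signals of 65217 to 66876 in ob/ob, 61693 to 68550 in STZ and 62969 to 67268 in control hypothalami, and median differences of 0.051, 0.036 and 0.021 in the same order of comparisons. Neuron markers (6 of 6 measured) had medians of -0.043, 0.0011 and -0.021, microglia markers (6 of 7) -0.087, -0.064 and -0.036, and endothelium markers (5 of 6) -0.14, -0.041 and -0.098, again in that order. No marker of oligodendrocytes, astrocytes, neurons, microglia or endothelium passed the adjusted threshold in any comparison (limma), and their part in the values of the enzymes was not tested.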

How the data were processed

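Total RNA of 17 hypothalami was hybridised to Affymetrix mouse arrays, with 6 STZ, 5 ob/ob and 6 control mice grouped by the array titles. The authors deposited 1 linear MAS5 signal, an intensity, for each probe set on each array, per the submitters' processing notes. The version and scaling target are not given in the sources used here. The number of arrays limits the precision.

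After the 64 control probe sets, those whose mean log2 signal was below the 40th percentile (a geometric mean of 435) were dropped, leaving 13576 of 22690. Symbols came from the platform annotation. Of the probe sets that were not controls, 20380 had 1 symbol, 691 several and 1555 none. The brightest probe set with 1 symbol stood for a gene (an _x_at probe set only if the gene lacked another), which gave 7954 genes. Group means were fitted to log2(signal) with limma 3.58.1 (lmFit, eBayes with trend) in R 4.3.3, with Benjamini-Hochberg adjustment. The fit was tested on simulated data with changes larger than any difference of the enzymes, so changes of their size were not tried. Figures were drawn with matplotlib 3.10.9 in Python 3.11.15.

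The members and gene lists were chosen with earlier results of these data known, so no test over a list is given. All 9 enzymes were named whatever their values, with the 2 genes of smallest p in each pathway list. Marker lists were given by counts, medians and summed signals, with Hcrt, Aqp4, Gjb6, Cx3cr1, Prkcd and Ramp3 named from them. The naming rule also covered other genes of the marker lists, which are not printed here. Alternatives were other filters, normalizations, an offset of 64 before the log, no trend, 2 groups at a time, the replicate number as a block, a neighbouring-region marker covariate, the mean of a gene's probe sets, and leaving out each array.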

Additional observations from a re-analysis of the deposited data

How the results depend on the processing

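No enzyme passed the adjusted threshold under any of the 10 alternative settings or when an array was left out. The lowest adjusted p over the settings was 0.311 in STZ against control, 0.211 in ob/ob against control and 0.998 in ob/ob against STZ. With an array left out it was 0.161, 0.179 and 0.997 in the same order, the first pair both for Msmo1 without control array 2. All 9 enzymes kept a positive difference in ob/ob against STZ in each of them, or 8 of 8 with the 60th-percentile filter, which left out Tm7sf2. In STZ against control 3 of 89 values of the enzymes changed sign. These were Ebp at 0.032 and Dhcr7 at 0.0051 with the neighbouring-region covariate, and Hsd17b7 at 0.11 when its probe sets were averaged. Leaving out 1 array gave -0.082 to 0.015 for Dhcr7, -0.061 to 0.025 for Hsd17b7, -0.080 to 0.0015 for Ebp and -0.046 to 0.015 for Sc5d in STZ against control. It gave -0.0024 to 0.059 for Ebp, -0.041 to 0.015 for Cyb5a and -0.047 to 0.018 for Stard4 in ob/ob against control, and -0.036 to 0.0085 for Lbr and -0.16 to 0.036 for Cyb5b in ob/ob against STZ. In ob/ob against control, the covariate put the median of the enzymes at 0.14 and Cyb5a at 0.035. In ob/ob against STZ, it put Lbr at 0.022, and averaging probe sets put Fdft1 at -0.058 and Mbtps1 at -0.17. The cause was not tested.

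Counts of probe sets past the adjusted threshold over the whole array moved more. With the covariate they were 0 in STZ against control, 0 in ob/ob against control and 1 in ob/ob against STZ. Fitting only 2 groups gave 6 in ob/ob against control and 1 in ob/ob against STZ, and quantile normalization gave 29 in ob/ob against control. In ob/ob against STZ there was 1 without a filter and 3 with the 60th-percentile filter. Leaving out 1 array gave 0 to 18 in STZ against control, lowest without STZ array 4 or 5 and highest without STZ array 1. It gave 8 to 43 in ob/ob against control, lowest without control array 1 or 3 and highest without control array 4, and 1 to 9 in ob/ob against STZ, highest without STZ array 1.

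The replicate numbers of the titles did not pair the samples. Same-numbered arrays had correlated deviations of -0.082 to 0.063 between STZ and control, -0.11 to 0.11 between ob/ob and control and -0.17 to 0.093 between ob/ob and STZ. With the replicate number as a block the counts were 5 in STZ against control, 19 in ob/ob against control and 1 in ob/ob against STZ, and Cyb5a was at 0.013 in ob/ob against control.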
